A study of Mus musculus with 9 samples.

Results

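The clustered replication-dependent histone genes of the mouse were followed here as a group of 67 genes out of the 56262 rows of the deposited count tables. They were taken as every protein-coding row whose symbol begins with Hist1h, Hist2h, Hist3h or Hist4h, and 3 pseudogene rows with such symbols were left out. RNA was measured in cells labelled long-term hematopoietic stem cells (LT-HSCs), marrow cells at the origin of all blood lineages. They came from wild-type C57BL/6 mice in 3 groups of 3 libraries. 5-FU+FMT mice were pre-conditioned with 250 mg/kg of 5-FU, or fluorouracil, an antimetabolite toxic to cells that copy their DNA, and received FMT at 5 mg/kg into a vein on days 1, 4 and 7. 5-FU+Saline mice had the same dose of 5-FU and then saline, which the series text calls PBS, on a schedule that is not stated. Cells of both 5-FU groups were taken on day 8. Control mice were untreated. The labels do not spell out FMT and do not say whether a library came from 1 mouse or several. Sex-linked RNA, given below, shows more than 1 mouse in each 5-FU library but does not settle this for Control. The spread behind the p-values could therefore be technical. Cells were sorted as Lin-, Sca1+, c-Kit+ and CD150+, and the marker C48- of the labels is read here as CD48-negative.

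Replication-dependent histone genes supply the linker histone H1 and the core histones H2A, H2B, H3 and H4 that package newly copied DNA, and their RNA normally builds up in S phase. Most of their mRNAs have no introns and no poly(A) tail. The RNA ends a few bases past a short hairpin, the histone stem-loop, which stem-loop binding protein (Slbp) holds during processing, translation and decay. Some of these genes also make longer, polyadenylated transcripts, known from differentiated cells. How RNA was selected for these libraries, by its tail or by removing ribosomal RNA, is not given in the sources used here.

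The stem-loop was looked for in the GENCODE M21 transcripts as its 16-base pattern on the transcript strand with a paired stem, and 46 of the 67 genes had it. It is shown because it divides the gene models by where they end, and because the H4 genes carry their own form. The 16 capitals mark the hairpin, with 5 transcript bases on each side.
Hist1h1c: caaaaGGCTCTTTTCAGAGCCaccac
Hist1h2ac: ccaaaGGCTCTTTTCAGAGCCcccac
Hist1h2bg: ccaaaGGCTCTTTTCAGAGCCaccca
Hist3h2ba: ccaaaGGCTCTTTTCAGAGCCacctt
Hist1h3e: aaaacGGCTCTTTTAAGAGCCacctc
Hist1h4i: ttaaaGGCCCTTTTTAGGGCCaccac
Hist4h4: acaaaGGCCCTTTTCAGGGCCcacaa
The hairpin of Hist1h1c, Hist1h2ac, Hist1h2bg and Hist3h2ba was the commonest form, found in 26 genes of the H1, H2A, H2B and H3 families and in no H4 gene. The form of Hist1h3e was found in 6 genes. All 12 H4 genes with a hairpin had a stem that none of the other families had, most often the form of Hist4h4, in 7 genes. The annotated transcript ran on for 840 bases past the hairpin in Hist1h1c, 2010 in Hist1h2ac, 155 in Hist1h2bg and 330 in Hist1h4i.

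The genes lie in a large cluster on chromosome 13 and in smaller ones. On mm10, a block of 23 genes spans chr13:21715763-22043676 and a block of 31 genes spans chr13:23531050-23934851. A further 10 lie at chr3:96219865-96270132, 2 at chr11:58948920-58956830 and Hist4h4 alone at chr6:136801553-136804415. The coding parts are short and alike. The 13 H4 genes have 12 distinct coding sequences and encode a single protein. The longest annotated coding sequences of the 12 H3 genes, 411 to 546 bases long, give 3 distinct translations. In 24 of the 67 genes more than 50% of all 150-base windows of the transcript also occur in another gene, and in 13 genes none do. A read of 150 bases from a shared stretch cannot be assigned to a gene by its own sequence, although its mate may lie outside the stretch. Some shared windows come from gene models that overlap at the same place, as with Hist1h1e and Hist1h2be. The headers show no option for multiply mapped reads. Exons of 24 genes overlap another gene model, and in 5 genes they do so completely.

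Total counts were 11098031 to 19270976 per library. The groups also differed in ways that bear on bulk RNA. B lineage markers (7 genes) summed to 373 to 416 CPM (counts scaled to a common library size after TMM normalisation) in 5-FU+FMT, 837 to 856 in 5-FU+Saline and 30.2 to 32.2 in Control. Erythroid markers (6 genes) summed to 173 to 183, 24.1 to 26.6 and 402 to 414 CPM in the same order of groups, and neutrophil markers (5 genes) to 851 to 970, 127 to 139 and 2267 to 2302 CPM. Not every member followed these sums. Of the neutrophil list, S100a8 averaged 5.71, 6.06 and 5.35 CPM and was called in no comparison. Of the erythroid list, Epor averaged 16.8, 17.5 and 22.5 CPM and was not called between the 5-FU groups. Stroma markers (6 genes) summed to 72.6 to 75.4, 209 to 215 and 62.8 to 63.8 CPM, but their sum joins members of opposite order. Pdgfrb averaged 27.6 CPM in 5-FU+FMT, 12.97 in 5-FU+Saline and 57.1 in Control, while Cxcl12 averaged 24.2, 127 and 2.32 CPM, and Lepr, Col1a1, Col1a2 and Sparc were, like Cxcl12, lowest in Control and called higher in both 5-FU groups. The 8 LT-HSC markers summed to 1319 to 1369, 1083 to 1094 and 1683 to 1693 CPM, but this sum too joins members of opposite order. In 5-FU+Saline against Control, 3 were called higher (Slamf1, Ly6a and Mecom), 3 lower (Kit, Procr and Hlf) and 2 were not called. Their median log2 change was 0.10. No marker of these lists was at 0 in every library. Slamf1, which encodes CD150, averaged 24.4, 34.6 and 8.35 CPM, Kit 537, 411 and 754 CPM, and Cd48, which the gate excludes, 46.7, 53.7 and 30.7 CPM. Flt3, a receptor of multipotent progenitors, averaged 279.5 CPM in 5-FU+FMT, 70.9 in 5-FU+Saline and 584.5 in Control, the same order of groups as the histone sum below. Xist, expressed in female cells, averaged 682 CPM in 5-FU+FMT, 1201 in 5-FU+Saline and 0.870 in Control, while 4 Y-linked genes summed to 230, 99.2 and 366 CPM. Every library of the 5-FU groups held both, with Xist at 659.5 CPM or more and the Y-linked sum at 95.76 CPM or more. A single mouse would not give both, so each of these libraries mixed RNA of more than 1 mouse. The part of cell makeup and sex in the histone results was not tested. In such bulk samples fewer cells of a type and less RNA per cell cannot be told apart.

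Of the 67 genes, 60 had at least 1 count and 7 had none in any library. A count of 0 allows up to 0.155 to 0.275 CPM in a library, taking 3 counts as the limit, which covers counting error only. Of the 7, Hist2h2aa1, Hist2h2aa2, Hist2h3b, Hist2h3c1 and Hist2h2bb have exons that lie wholly within other gene models, and all of their 150-base windows occur in other genes, so that a 0 there cannot be told apart from reads left unassigned. The other 2, Hist1h2aa and Hist1h2ba, are testis-type histones, and the testis-type linker histone Hist1h1t had 1 count in all 9 libraries together. In all, 39 genes passed the filter on low counts. The highest group mean among the 28 that did not was 0.739 CPM. A mean of at least 1 CPM was reached by 27 genes in 5-FU+FMT, 20 in 5-FU+Saline and 29 in Control, and a mean of at least 10 CPM by 5, 5 and 7 genes.

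A few genes held most of the signal. Hist1h1c made up 38.8% ± 1.13 of the histone CPM in 5-FU+FMT, 30.7% ± 1.13 in 5-FU+Saline and 45.8% ± 2.56 in Control (SD, n = 3 each). The 7 genes with at least 10 CPM in a group (Hist1h1c, Hist1h2bg, Hist1h2bc, Hist1h4i, Hist2h2be, Hist3h2ba and Hist1h2ac) held 80.1%, 78.1% and 82.3%. Compared per kilobase of gene model, Hist1h1c was highest in Control at 104 CPM per kb, followed by Hist1h2bg at 81.7, Hist1h4i at 26.4, Hist1h2bc at 22.9 and Hist3h2ba at 17.8. In 5-FU+Saline the order changed: Hist1h4i had 36.3 CPM per kb, Hist1h1c 33.9, Hist1h2bg 20.0 and Hist1h2bc 19.2. All 67 genes together took 0.0265% of the counts in 5-FU+FMT, 0.0173% in 5-FU+Saline and 0.0348% in Control.

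Histone RNA as a whole was lowest after 5-FU with saline and in between after 5-FU with FMT. The 67 genes summed to 260, 265 and 262 CPM in 5-FU+FMT, 169, 175 and 172 in 5-FU+Saline and 354, 362 and 348 in Control, so that the 3 groups did not overlap. The mean of 5-FU+Saline was 2.06-fold lower than that of Control, that of 5-FU+FMT was 1.52-fold higher than that of 5-FU+Saline, and that of 5-FU+FMT was 1.35-fold lower than that of Control. Without Hist1h1c these folds were 1.61, 1.35 and 1.20. These sums are descriptions and carry no test.

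Between 5-FU+Saline and Control, 19 histone genes fell, 3 rose and 17 of the 39 tested did not pass (edgeR quasi-likelihood test, Benjamini-Hochberg adjusted p under 0.05). In that comparison 65.5% of all 16595 genes tested were called, 32.8% higher and 32.7% lower. The median change of the histone genes tested was -0.95 on the log2 scale, beside -0.02 over all genes tested. The genes that fell were 3 of 5 H1, 4 of 8 H2A, 4 of 11 H2B, 3 of 6 H3 and 5 of 9 H4 genes tested, and those that rose were Hist1h4i, Hist1h2ae and Hist2h2be. The count that rose was 1 when Control replicate 3 was left out, and the count that fell ranged from 14 without Control replicate 1 to 21 without Control replicate 3.

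Between 5-FU+FMT and 5-FU+Saline, 13 histone genes rose, none fell and 26 did not pass. Of all genes tested, 36.9% were called in that comparison, 17.7% higher and 19.2% lower, and the median change was 0.56 in the histone genes and 0.01 over all genes. The genes that rose were 3 H1, 4 H2A, 4 H2B, 1 H3 and 1 H4 gene. No histone gene fell in the edgeR test or under any of the settings tried, DESeq2 included, and 0 had an unadjusted p under 0.05 in that direction. The count that rose was 9 with DESeq2, and 9 when 5-FU+Saline replicate 1 or 3 or 5-FU+FMT replicate 1 or 2 was left out. Only Hist1h1c, Hist1h1d, Hist1h2ac, Hist1h2bg and Hist3h2ba were called under every setting tried.

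Between 5-FU+FMT and Control, 4 histone genes rose, 9 fell and 26 did not pass, where 46.6% of all genes tested were called, 25% higher and 21.6% lower. The median change was -0.32 in the histone genes and -0.01 over all genes. With upper-quartile factors 3315 of all genes were higher and 4559 lower, against 4151 higher and 3584 lower here, and 4 histone genes rose and 10 fell. The genes that rose were Hist1h2ag, Hist1h2bj, Hist1h3c and Hist1h4i. Their count was 2 without Control replicate 3, 1 without 5-FU+FMT replicate 1 and 2 without 5-FU+FMT replicate 2, and Hist1h2bj alone was called under every setting. The count that fell was 6 without Control replicate 1 or without 5-FU+FMT replicate 2. The 3 comparisons share libraries in pairs, so they are not independent of each other.

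**Figure D1:**
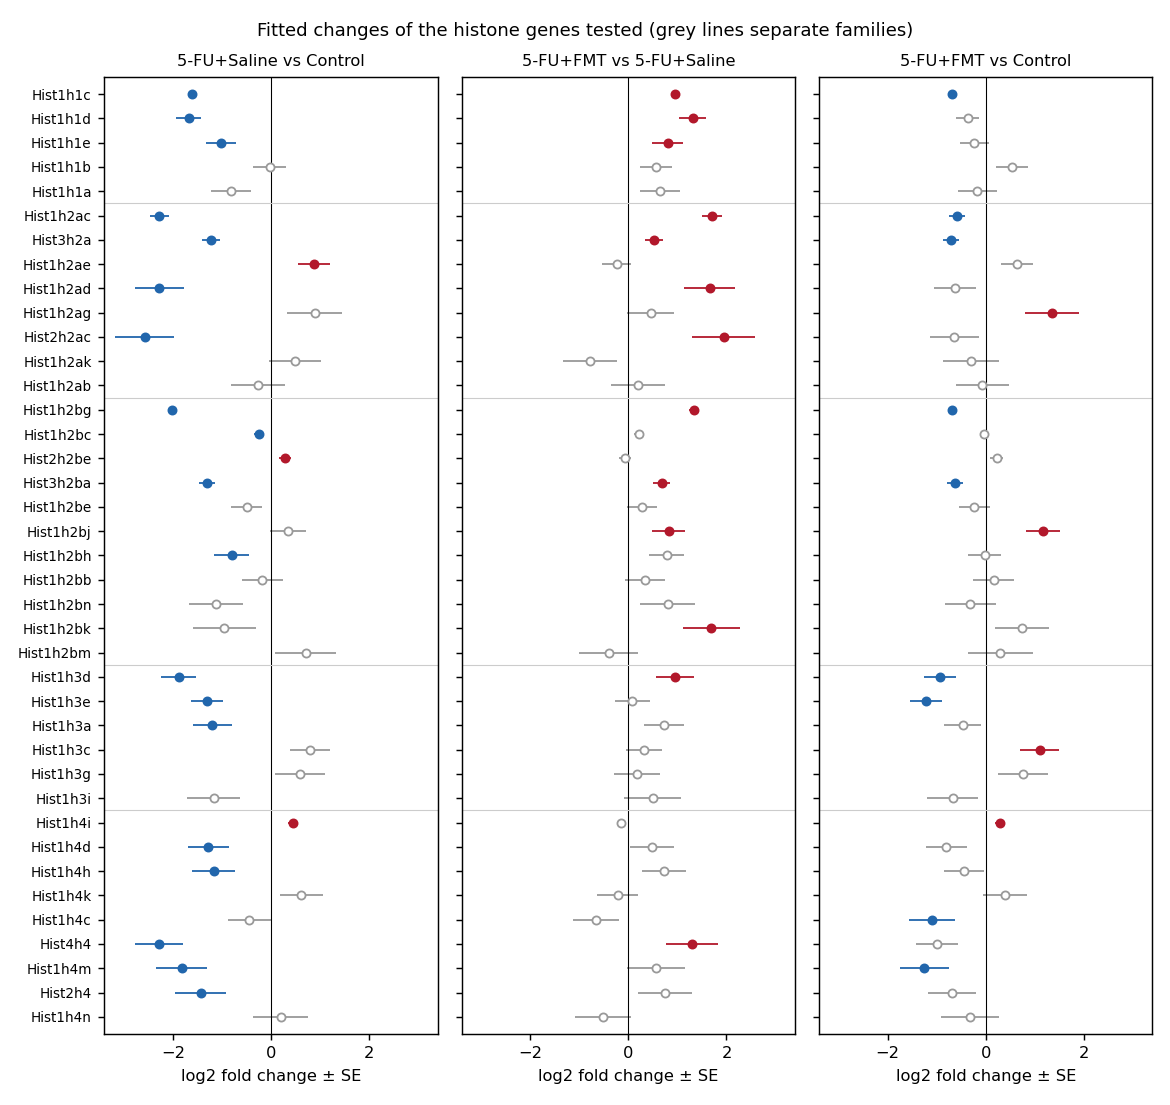
Fitted log2 fold changes with standard errors (x axis) of the 39 histone genes that passed the filter (y axis, by family from H1 at the top to H4 at the bottom), in each of 3 comparisons. Filled points passed the test at an adjusted p under 0.05, red higher and blue lower, and open grey points did not: 19 blue and 3 red points in 5-FU+Saline against Control, 13 red in 5-FU+FMT against 5-FU+Saline, and 9 blue and 4 red in 5-FU+FMT against Control.

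The H1 family, linker histones that bind DNA where it enters and leaves the nucleosome, differed between the groups in its sum, with 112 ± 3.86 CPM in 5-FU+FMT, 58.7 ± 2.36 in 5-FU+Saline and 174 ± 6.92 in Control (SD, n = 3 each). Hist1h1c (H1f2 in newer naming, chr13:23738808-23740367, plus strand) encodes the linker histone H1.2. It had 97.9, 103 and 105 CPM in 5-FU+FMT, 53.3, 54.7 and 50.8 in 5-FU+Saline and 154, 164 and 169 in Control. No library of a group overlapped another group. It fell by 1.62 ± 0.05 (log2, SE) in 5-FU+Saline against Control, 3.08-fold, with an adjusted p of 4.64e-45. It rose by 0.95 ± 0.05 in 5-FU+FMT against 5-FU+Saline (adjusted p = 1.82e-28), and fell by 0.68 ± 0.04 in 5-FU+FMT against Control (adjusted p = 5.19e-23).

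Hist1h1d, the gene of H1.3, had 3.86, 3.93 and 3.54 CPM in 5-FU+FMT, 1.65, 1.78 and 1.19 in 5-FU+Saline and 5.22, 6.33 and 3.47 in Control. The 5-FU+Saline libraries lay below all others, while 5-FU+FMT and Control overlapped. The gene fell by 1.68 ± 0.26 in 5-FU+Saline against Control and rose by 1.31 ± 0.27 in 5-FU+FMT against 5-FU+Saline, and the value of -0.37 ± 0.24 in 5-FU+FMT against Control did not pass, except without Control replicate 3. Hist1h1e, the gene of H1.4, averaged 2.67, 1.51 and 3.15 CPM and was called in 5-FU+Saline against Control at -1.02 ± 0.31 and in 5-FU+FMT against 5-FU+Saline at 0.80 ± 0.32. Its call between 5-FU+FMT and 5-FU+Saline was lost with DESeq2 and without 5-FU+Saline replicate 1 or 2 or 5-FU+FMT replicate 1 or 3. Exons of Hist1h1e overlap Hist1h2be on the same strand. Hist1h1a and Hist1h1b, whose gene models end near the stop codon, passed in no comparison, although Hist1h1a, at -0.81 ± 0.41 in 5-FU+Saline against Control, did pass with upper-quartile factors and without Control replicate 3.

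**Figure D2:**
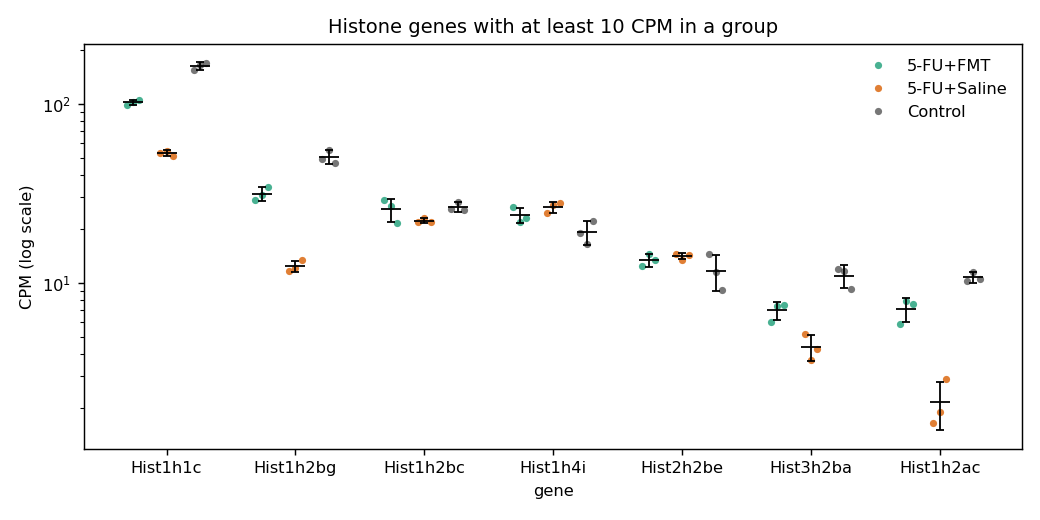
CPM per library on a log scale (y axis) of the 7 histone genes with at least 10 CPM in a group (x axis), with 3 libraries a group as points and the mean ± SD in black. Hist1h1c, Hist1h2bg, Hist3h2ba and Hist1h2ac are lowest in 5-FU+Saline and highest in Control, while Hist1h2bc and Hist2h2be differ less between the groups and Hist1h4i has its highest mean in 5-FU+Saline, whose libraries all lie above those of Control.

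The H2A family summed to 20.1 ± 1.60 CPM in 5-FU+FMT, 11.9 ± 0.965 in 5-FU+Saline and 26.6 ± 2.12 in Control. H2A pairs with H2B in the nucleosome. Hist1h2ac (chr13:23681467-23683948, minus strand) had 5.92, 7.93 and 7.58 CPM in 5-FU+FMT, 1.65, 1.91 and 2.89 in 5-FU+Saline and 10.2, 11.6 and 10.4 in Control. Its 3 groups were apart in every library. It fell by 2.28 ± 0.19 in 5-FU+Saline against Control, 4.87-fold (adjusted p = 3.75e-18), rose by 1.70 ± 0.20 in 5-FU+FMT against 5-FU+Saline and fell by 0.59 ± 0.16 in 5-FU+FMT against Control. Other gene models overlap 9.91% of its exon bases.

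Hist3h2a, on chromosome 11 beside Hist3h2ba, had 5.66, 4.07 and 6.50 CPM in 5-FU+FMT, 3.24, 3.94 and 4.08 in 5-FU+Saline and 8.65, 9.45 and 8.64 in Control. Control stood above both 5-FU groups, which overlapped each other. It fell by 1.23 ± 0.18 in 5-FU+Saline and by 0.71 ± 0.17 in 5-FU+FMT, each against Control. It rose by 0.52 ± 0.19 in 5-FU+FMT against 5-FU+Saline (adjusted p = 0.0239), a call lost without 5-FU+Saline replicate 1 or 5-FU+FMT replicate 1 or 3. Of its exon bases, 33% are shared with Trim17 or Gm44313, and the headers show no strand option, so reads of these genes cannot be told apart.

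Hist1h2ae went the other way, with 2.06, 2.60 and 2.31 CPM in 5-FU+FMT, 2.45, 2.93 and 2.84 in 5-FU+Saline and 1.19, 2.48 and 1.01 in Control. It rose by 0.88 ± 0.32 in 5-FU+Saline against Control (adjusted p = 0.0123), and its groups overlapped through Control replicate 2. The call was lost without Control replicate 1 or 3. Hist1h2ad and Hist2h2ac, named here after their values were seen, were low in CPM. Hist1h2ad averaged 1.03, 0.328 and 1.61 CPM in 5-FU+FMT, 5-FU+Saline and Control, and Hist2h2ac 0.719, 0.181 and 1.14. They fell by 2.28 ± 0.50 and 2.58 ± 0.61 in 5-FU+Saline against Control and rose by 1.66 ± 0.52 and 1.94 ± 0.64 in 5-FU+FMT against 5-FU+Saline. Both rises were lost without 5-FU+Saline replicate 3, and that of Hist2h2ac without 5-FU+FMT replicate 2 too. Hist2h2ac had 3 counts in each 5-FU+Saline library, the limit used for a count of 0. In 5-FU+FMT against Control, neither passed, at -0.62 ± 0.43 for Hist1h2ad and -0.64 ± 0.50 for Hist2h2ac. Hist1h2ag rose by 1.35 ± 0.55 in 5-FU+FMT against Control, at 1.01 and 0.377 CPM on average, a call lost without Control replicate 2 or 3 or without any of the 5-FU+FMT libraries.

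The H2B family summed to 89.3 ± 2.40 CPM in 5-FU+FMT, 60.8 ± 1.40 in 5-FU+Saline and 110 ± 8.61 in Control. Hist1h2bg (chr13:23571396-23572013, plus strand), an H2B gene, had 28.9, 30.8 and 34.3 CPM in 5-FU+FMT, 11.7, 12.1 and 13.3 in 5-FU+Saline and 49.2, 55.4 and 46.9 in Control. The groups did not overlap. It fell by 2.02 ± 0.09 in 5-FU+Saline against Control, 4.04-fold (adjusted p = 8.67e-34), rose by 1.33 ± 0.09 in 5-FU+FMT against 5-FU+Saline (adjusted p = 1.55e-21) and fell by 0.68 ± 0.08 in 5-FU+FMT against Control. Of its 150-base windows, 39.0% also occur in another gene.

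Hist3h2ba (chr11:58948920-58949533, plus strand), none of whose windows occur in another gene, had 6.04, 7.44 and 7.51 CPM in 5-FU+FMT, 5.16, 3.69 and 4.29 in 5-FU+Saline and 12.0, 11.7 and 9.17 in Control. Its groups did not overlap either. It fell by 1.31 ± 0.16 in 5-FU+Saline against Control, rose by 0.68 ± 0.17 in 5-FU+FMT against 5-FU+Saline and fell by 0.63 ± 0.16 in 5-FU+FMT against Control. Hist1h2bj behaved differently. It had 3.09, 2.60 and 2.17 CPM in 5-FU+FMT, 1.65, 1.59 and 1.24 in 5-FU+Saline and 1.04, 0.917 and 1.44 in Control, so that 5-FU+FMT stood above both other groups. It rose by 1.17 ± 0.35 in 5-FU+FMT against Control (adjusted p = 0.00382). It rose by 0.82 ± 0.33 against 5-FU+Saline (adjusted p = 0.0429), and that call was lost with DESeq2, no filter or a replicate block, without any of the 5-FU+Saline libraries, and without 5-FU+FMT replicate 1 or 2.

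Hist1h2bc and Hist2h2be, both without a stem-loop in the annotated transcript past the stop codon, differed by 1.19-fold and 1.22-fold between 5-FU+Saline and Control. Hist1h2bc (chr13:23684199-23692908, in 2 exon blocks) had 28.9, 26.7 and 21.6 CPM in 5-FU+FMT, 21.8, 23.1 and 21.9 in 5-FU+Saline and 25.8, 28.3 and 25.3 in Control. It fell by 0.25 ± 0.09 in 5-FU+Saline against Control (adjusted p = 0.0143), a call lost with no filter and without Control replicate 2. Hist2h2be (chr3:96221119-96223738) had 12.3, 14.5 and 13.4 CPM in 5-FU+FMT, 14.5, 13.4 and 14.3 in 5-FU+Saline and 14.4, 11.6 and 9.06 in Control. It rose by 0.29 ± 0.12 in 5-FU+Saline against Control (adjusted p = 0.035), a call lost with DESeq2 or upper-quartile factors and without Control replicate 2 or 3 or 5-FU+Saline replicate 1 or 3. Neither gene passed in 5-FU+FMT against 5-FU+Saline or against Control. Hist1h2bc, at 0.21 ± 0.09 against 5-FU+Saline (adjusted p = 0.0555), did pass with upper-quartile factors, with only the 2 groups fitted or without 5-FU+FMT replicate 3, and Hist2h2be passed against Control without Control replicate 1. Hist1h2bh fell in 5-FU+Saline against Control and Hist1h2bk rose in 5-FU+FMT against 5-FU+Saline, at -0.80 ± 0.36 and 1.69 ± 0.58. Both were named after their values were seen. The call of Hist1h2bh was lost with no filter, with only the 2 groups fitted, and without Control or 5-FU+Saline replicate 1 or 3, and that of Hist1h2bk without 5-FU+Saline replicate 2 or 3 or 5-FU+FMT replicate 2.

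**Figure D3:**
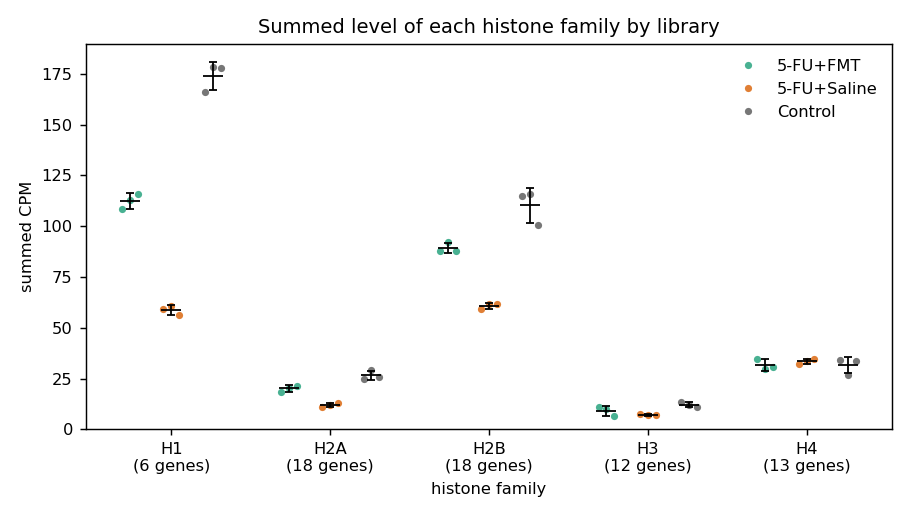
Summed CPM of each histone family per library (y axis, from 0) with the mean ± SD of 3 libraries in black, for the 5 families (x axis). H1, H2A and H2B are lowest in 5-FU+Saline and highest in Control, while the 3 groups overlap in H4.

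The H3 family summed to 9.02 ± 2.30 CPM in 5-FU+FMT, 7.25 ± 0.462 in 5-FU+Saline and 12.1 ± 1.33 in Control. H3 carries many of the modified residues of chromatin. Hist1h3d had 2.51, 1.48 and 1.01 CPM in 5-FU+FMT, 1.19, 0.763 and 0.671 in 5-FU+Saline and 3.73, 3.67 and 2.35 in Control, with 5-FU+FMT overlapping each of the others. It fell by 1.88 ± 0.36 in 5-FU+Saline against Control. Its rise of 0.95 ± 0.38 in 5-FU+FMT against 5-FU+Saline (adjusted p = 0.0419) was lost with DESeq2, a replicate block or only the 2 groups fitted, and without 5-FU+Saline replicate 2 or 3 or 5-FU+FMT replicate 1. Its fall of 0.93 ± 0.33 in 5-FU+FMT against Control was lost without Control replicate 1 or 2 or 5-FU+FMT replicate 2 or 3. Hist1h3e had 1.67, 1.19 and 1.08 CPM in 5-FU+FMT, 1.59, 0.763 and 1.39 in 5-FU+Saline and 3.28, 3.03 and 2.99 in Control. Both 5-FU groups lay below Control and overlapped each other. It fell by 1.30 ± 0.33 in 5-FU+Saline and by 1.22 ± 0.33 in 5-FU+FMT, each against Control, and its value of 0.08 ± 0.36 between the 5-FU groups did not pass. Hist1h3a fell by 1.20 ± 0.40 in 5-FU+Saline against Control, a call lost without Control replicate 1. Hist1h3c rose by 1.10 ± 0.40 in 5-FU+FMT against Control, at 1.86 and 0.878 CPM on average, a call lost without Control replicate 3 or 5-FU+FMT replicate 1 or 2.

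The H4 family did not show the order of the others in its sum, with 31.6 ± 2.78 CPM in 5-FU+FMT, 33.4 ± 1.40 in 5-FU+Saline and 31.55 ± 4.08 in Control. Hist1h4i (chr13:22040636-22041362, minus strand) made up most of that sum. It had 26.6, 21.9 and 23.1 CPM in 5-FU+FMT, 24.4, 27.0 and 27.7 in 5-FU+Saline and 18.9, 16.5 and 22.2 in Control. The 5-FU+Saline libraries all lay above those of Control. It rose by 0.44 ± 0.09 in 5-FU+Saline against Control, 1.36-fold (adjusted p = 3.66e-05), and was called under every setting. It rose by 0.29 ± 0.10 in 5-FU+FMT against Control (adjusted p = 0.00915), a call lost without Control replicate 2 or 5-FU+FMT replicate 1. Of its 150-base windows, 2.08% occur in another gene, although all 13 H4 genes encode the same protein.

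Of the other H4 genes, 5 fell in 5-FU+Saline against Control, and Hist1h4c passed only in 5-FU+FMT against Control. Hist1h4d fell by 1.28 ± 0.42, a call lost without Control replicate 1 or 5-FU+Saline replicate 2, and Hist1h4h by 1.17 ± 0.44, a call lost without Control replicate 1 or 5-FU+Saline replicate 3. Hist4h4, Hist1h4m and Hist2h4, named after their values were seen, fell by 2.28 ± 0.49, 1.82 ± 0.52 and 1.43 ± 0.52, and the call of Hist2h4 was lost without Control or 5-FU+Saline replicate 1. The value of Hist1h4m was -2.67 without 5-FU+Saline replicate 1 and -1.22 without 5-FU+Saline replicate 3, and that of Hist4h4 was -2.91 without 5-FU+Saline replicate 2. The groups overlapped for Hist1h4m, which had 0.859, 0.445 and 0.0516 CPM in 5-FU+Saline and 1.79, 0.642 and 2.03 in Control, and 85.8% of its windows occur in another gene. Hist4h4 had 0.836, 1.05 and 0.794 CPM in 5-FU+FMT, 0.132, 0.636 and 0.310 in 5-FU+Saline and 1.34, 2.02 and 1.97 in Control, so that its groups did not overlap. It rose by 1.30 ± 0.53 in 5-FU+FMT against 5-FU+Saline (adjusted p = 0.0456), a call lost with DESeq2 or no filter and without any library but 5-FU+Saline replicate 2, without which the value was 1.92. Hist1h4c and Hist1h4m, at 0.666 and 0.634 CPM in 5-FU+FMT and 1.44 and 1.49 in Control, fell by 1.10 ± 0.47 and 1.25 ± 0.50 in 5-FU+FMT against Control, and both calls were lost with DESeq2. That of Hist1h4c was also lost with no filter or a replicate block and without Control replicate 1, any 5-FU+Saline library or 5-FU+FMT replicate 1 or 2, and that of Hist1h4m without Control replicate 1 or 3 or 5-FU+FMT replicate 2 or 3.

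The 2 blocks on chromosome 13 differed in their sums. The block of 31 genes, which holds Hist1h1c and Hist1h2bg, summed to 196 ± 3.85 CPM in 5-FU+FMT, 111 ± 2.73 in 5-FU+Saline and 287 ± 8.37 in Control. The block of 23 genes, which holds Hist1h4i, Hist1h2ag and Hist1h2bj, summed to 38.5 ± 3.91, 37.6 ± 0.992 and 31.6 ± 4.01 CPM. In 5-FU+Saline against Control, 13 genes fell and 1 rose of 21 tested in the block of 31, and 1 fell and 1 rose of 12 tested in the block of 23. Over all genes tested, 32.7% were lower and 32.8% higher there. The median changes of the genes tested in the 2 blocks were -1.02 and 0.27. In 5-FU+FMT against 5-FU+Saline, 7 of 21 and 2 of 12 rose and none fell, with medians of 0.64 and 0.48. Of all genes tested, 17.7% were higher and 19.2% lower there, so the 2 of 12 that rose are near the share of all genes. In 5-FU+FMT against Control, 1 rose and 6 fell in the block of 31 and 3 rose and 1 fell in the block of 23, with medians of -0.37 and 0.30. The shares over all genes tested were 25% higher and 21.6% lower. Hist1h4i alone averaged 23.9, 26.4 and 19.2 CPM of the sum of the smaller block, so the order of that sum rests largely on this gene. What remains of the sum without it has its lowest mean in 5-FU+Saline, as in the block of 31, though its libraries overlap those of the other groups. The difference between the blocks was not tested.

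The calls were also unevenly spread over the kinds of gene model. In 26 genes the annotated transcript runs on for more than 50 bases past the stem-loop, in 20 it ends at or near the stem-loop, in 17 it ends within 50 bases of the stop codon, and in 4 it goes on past the stop codon with no stem-loop found. Genes that run on held most of the counts, 200 ± 6.21 CPM in 5-FU+FMT, 119 ± 2.98 in 5-FU+Saline and 294 ± 6.57 in Control. Genes that end at or near the stem-loop summed to 14.1 ± 1.37, 9.75 ± 1.10 and 13.9 ± 2.55 CPM, and those that end near the stop codon to 8.94 ± 1.21, 7.03 ± 0.864 and 8.38 ± 0.820 CPM. In 5-FU+Saline against Control, 14 fell and 2 rose of 19 tested that run on. Of 12 tested that end at the stem-loop, 4 fell and none rose, and none of 6 tested that end near the stop codon was called. Over all genes tested, 32.7% were lower and 32.8% higher in that comparison, so the 4 of 12 that fell are near the share of all genes. In 5-FU+FMT against 5-FU+Saline, 10, 3 and 0 rose in these 3 classes, beside 17.7% higher over all genes tested. The 4 genes that go on with no stem-loop found summed to 39.2 ± 3.695, 36.4 ± 0.0978 and 38.65 ± 3.80 CPM. Of the 2 of them tested, 1 rose and 1 fell in 5-FU+Saline against Control (median 0.02), and neither was called in 5-FU+FMT against 5-FU+Saline. Genes that end at the stem-loop or near the stop codon had fewer counts, and the difference between classes was not tested.

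**Figure D4:**
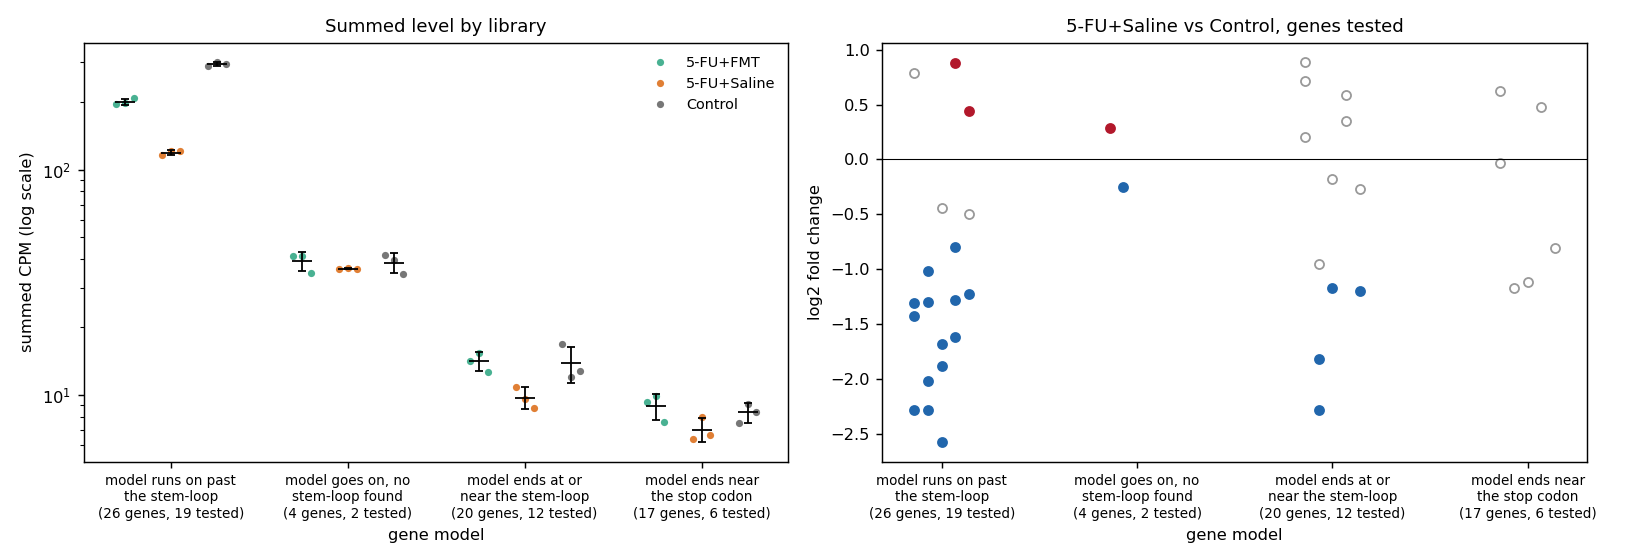
Left, summed CPM per library on a log scale (y axis) for 4 kinds of gene model (x axis), with the mean ± SD of 3 libraries in black; right, the log2 fold change in 5-FU+Saline against Control (y axis) of each gene tested, filled where it passed the test (red higher, blue lower). The genes that run on past the stem-loop hold 14 of the 19 genes that fell and 2 of the 3 that rose.

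RNAs that end without a poly(A) tail also differed between the groups. The rRNA biotype (354 genes) took 0.456% of the counts in 5-FU+FMT, 0.126% in 5-FU+Saline and 1.07% in Control. The snRNA biotype, RNAs of the splicing machinery, summed to 66.3 ± 0.852 CPM in 5-FU+FMT, 48.1 ± 1.78 in 5-FU+Saline and 87.7 ± 3.79 in Control, and the snoRNA biotype, many of them lying in introns, to 191 ± 5.92, 160.1 ± 0.783 and 244 ± 3.002 CPM. Of a list of 12 such RNAs, 8 were at 0 in every library and 3 were tested. Whether reads of the 8 were left unassigned was not tested. The 3 tested were low, with group means of 0.527 to 2.31 CPM. Rn7sk, Rnu1a1 and Rnu12 fell by 1.32, 2.13 and 1.67 in 5-FU+Saline against Control. The fall of Rnu12 was lost without Control replicate 3, at -1.06, and the value of Rnu1a1 was -2.73 without 5-FU+Saline replicate 1. Rnu1a1 and Rnu12 fell by 1.06 and 0.99 in 5-FU+FMT against Control. The call of Rnu1a1 was lost without Control replicate 2 or 3 or 5-FU+FMT replicate 1 or 2. That of Rnu12 was lost with a replicate block, without Control replicate 3, at -0.38, and without 5-FU+FMT replicate 2 or 3. Rn7sk passed in that comparison only without 5-FU+FMT replicate 3. None passed in 5-FU+FMT against 5-FU+Saline, where the values were 0.59 for Rn7sk, 1.07 for Rnu1a1 and 0.68 for Rnu12. Rnu1a1 passed there without 5-FU+Saline replicate 1, at 1.68, or without 5-FU+FMT replicate 2. The sum of the histone genes, the rRNA share and these biotypes thus stood in the same order of groups, and the part of RNA selection in the histone result was not tested.

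Histone genes that start back to back did not always move together. There are 12 pairs of an H2A and an H2B gene that start back to back, 175 to 305 bases apart. Hist1h2ae and Hist1h2bg lie 175 bases apart, and Hist1h2ae rose while Hist1h2bg fell in 5-FU+Saline against Control. Hist2h2ac and Hist2h2be lie 238 bases apart, and Hist2h2ac fell while Hist2h2be rose, with the losses of the calls of Hist1h2ae and Hist2h2be given above. Hist1h2ac fell by 2.28 and Hist1h2bc by 0.25, and they lie 250 bases apart. In the same comparison Hist1h2ag and Hist1h2bj, 269 bases apart, both did not pass, at 0.89 ± 0.56 and 0.35 ± 0.37. Hist1h2ak and Hist1h2bn, 295 bases apart, did not pass either, at 0.48 ± 0.53 and -1.12 ± 0.55. Hist1h2bn did pass with upper-quartile factors and without 5-FU+Saline replicate 3. In each of the remaining pairs at least 1 gene was not tested. The stretches between the pairs whose genes were called in opposite directions are shown, from RefSeq sequence of GRCm38.p6. Capitals mark the motifs ATTTGCAT (the octamer bound by POU2F1), TATAAA and CCAAT on either strand.
Hist1h2ae to Hist1h2bg, chr13:23571221-23571395, plus strand: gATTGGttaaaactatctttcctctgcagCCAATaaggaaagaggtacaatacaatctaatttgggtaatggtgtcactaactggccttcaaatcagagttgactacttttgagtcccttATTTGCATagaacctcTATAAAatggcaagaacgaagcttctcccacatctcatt
Hist2h2be to Hist2h2ac, chr3:96220881-96221118, minus strand: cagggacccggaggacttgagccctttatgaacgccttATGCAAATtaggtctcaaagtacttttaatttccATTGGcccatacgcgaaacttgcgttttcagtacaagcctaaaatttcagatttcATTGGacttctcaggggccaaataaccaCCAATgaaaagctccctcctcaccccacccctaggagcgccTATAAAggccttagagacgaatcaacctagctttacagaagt
Each stretch holds 1 octamer and 1 TATAAA. In the stretch of Hist1h2ae and Hist1h2bg both read towards Hist1h2bg. In that of Hist2h2ac and Hist2h2be the TATAAA reads towards Hist2h2ac and the octamer towards Hist2h2be.

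The promoters carried different letters in the 5 families. RefSeq gave a window of 250 bases before to 50 after the start for 62 of the 67 genes. Read on both strands, the octamer was in 7 of 18 H2A and 7 of 16 H2B windows, in none of the H1, H3 and H4 windows, and in 1.97% of the 27025 windows of all genes. TATAAA was in 35 of the 62 windows and 15.7% of all windows. CCAAT, the letters bound by NF-Y, was in all 6 H1, 18 H2A, 16 H2B and 10 H3 windows, but in 3 of 12 H4 windows, and in 41.1% of all windows. GGTCCG, the core of the H4 element bound by Hinfp, was in 11 of 12 H4 windows and 9.44% of all windows. AAACACA, known as the H1 box, was in 5 of 6 H1 windows and 8.22% of all windows. The 120 bases before the start are shown for the genes with the highest levels of these families, with capitals for the motifs of this paragraph that they hold.
Hist1h1c, chr13:23738687-23738806, plus strand: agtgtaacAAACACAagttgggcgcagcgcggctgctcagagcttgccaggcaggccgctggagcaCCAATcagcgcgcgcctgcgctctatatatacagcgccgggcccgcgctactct
Hist1h4i, chr13:22041363-22041482, minus strand: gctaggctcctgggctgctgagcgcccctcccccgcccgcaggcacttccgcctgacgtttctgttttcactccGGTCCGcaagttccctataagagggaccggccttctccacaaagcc
These matches describe letters in a window and show no binding.

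Genes of S phase and the histone genes that passed mostly had opposite directions. Of 20 S phase genes, 20 rose in 5-FU+Saline against Control with a median of 0.88, and 18 fell and none rose in 5-FU+FMT against 5-FU+Saline with a median of -0.32. All 20 rose in 5-FU+FMT against Control, with a median of 0.59. Rrm2, a subunit of the enzyme that makes deoxynucleotides, averaged 129 ± 5.25 CPM in 5-FU+FMT, 192 ± 6.97 in 5-FU+Saline and 63.5 ± 2.40 in Control. It rose by 1.59 in 5-FU+Saline against Control and fell by 0.57 in 5-FU+FMT against 5-FU+Saline. Mcm5, a subunit of the replicative helicase, averaged 341 ± 3.95, 429 ± 9.35 and 217 ± 2.45 CPM, and changed by 0.98 and -0.33 in the same comparisons.

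Genes that make and process histone mRNA were mostly called in the directions of the S phase genes. Of 20, 15 rose and 2 fell in 5-FU+Saline against Control (median 0.45), 1 rose and 13 fell in 5-FU+FMT against 5-FU+Saline (median -0.21), and 16 rose and 1 fell in 5-FU+FMT against Control (median 0.31). Slbp averaged 105 ± 2.60 CPM in 5-FU+FMT, 123 ± 4.68 in 5-FU+Saline and 78.9 ± 1.63 in Control, and Cpsf2, a factor of the cleavage complex, 120 ± 6.34, 147 ± 5.14 and 85.4 ± 3.97 CPM. Slbp rose by 0.64 ± 0.04 in 5-FU+Saline against Control (adjusted p = 1.39e-21) and fell by 0.22 ± 0.04 in 5-FU+FMT against 5-FU+Saline (adjusted p = 2.38e-05). The 2 that fell in 5-FU+Saline against Control were transcription factors of histone promoters, Hinfp by 0.33 ± 0.07 and Pou2f1 by 0.16 ± 0.05. Among those that rose there were Npat, by 0.36 ± 0.07, and Casp8ap2, by 0.46 ± 0.05. Hinfp was also the gene that rose in 5-FU+FMT against 5-FU+Saline, by 0.18 ± 0.07, and the gene that fell in 5-FU+FMT against Control, by 0.15 ± 0.07. These 2 calls of Hinfp were lost under 4 and 11 of 15 alternatives. The call of Pou2f1 was lost with no filter.

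Histone chaperones, which carry histones to DNA, did likewise, with 14 of 17 higher and 1 lower in 5-FU+Saline against Control (median 0.57), 1 higher and 12 lower in 5-FU+FMT against 5-FU+Saline (median -0.23) and 12 higher and 1 lower in 5-FU+FMT against Control (median 0.33). Nasp, a chaperone of H3 and H4 and of linker histones, averaged 153 ± 2.62 CPM in 5-FU+FMT, 202 ± 6.58 in 5-FU+Saline and 93.5 ± 3.64 in Control. Atrx, a partner of Daxx in placing H3.3, was the gene that fell in 5-FU+Saline against Control, by 0.25.

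Replacement and variant histones, most of which have poly(A) tails and are made outside S phase too, split. In 5-FU+Saline against Control 9 of 11 rose and 2 fell, in 5-FU+FMT against 5-FU+Saline 2 rose and 7 fell, and in 5-FU+FMT against Control 8 rose and 1 fell. H2afx, whose protein is phosphorylated at DNA breaks, averaged 207 ± 3.48 CPM in 5-FU+FMT, 270.1 ± 3.0 in 5-FU+Saline and 111 ± 1.47 in Control, and H2afz 536 ± 8.33, 651 ± 12.6 and 378 ± 3.85 CPM. They rose by 1.29 and 0.78 in 5-FU+Saline against Control and fell by 0.38 and 0.28 in 5-FU+FMT against 5-FU+Saline. H3f3b, which encodes the replacement histone H3.3, went with the clustered genes: it averaged 1421 ± 25.9, 897 ± 6.37 and 2308 ± 2.52 CPM, fell by 1.36 in 5-FU+Saline against Control and rose by 0.66 in 5-FU+FMT against 5-FU+Saline. H2afy, the gene of macroH2A1, fell by 0.18 and rose by 0.15 in these comparisons. H1f0, the linker histone of resting cells, averaged 157 ± 4.05 CPM in 5-FU+FMT, 177 ± 1.81 in 5-FU+Saline and 108 ± 4.29 in Control, opposite in order to Hist1h1c.

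**Figure D5:**
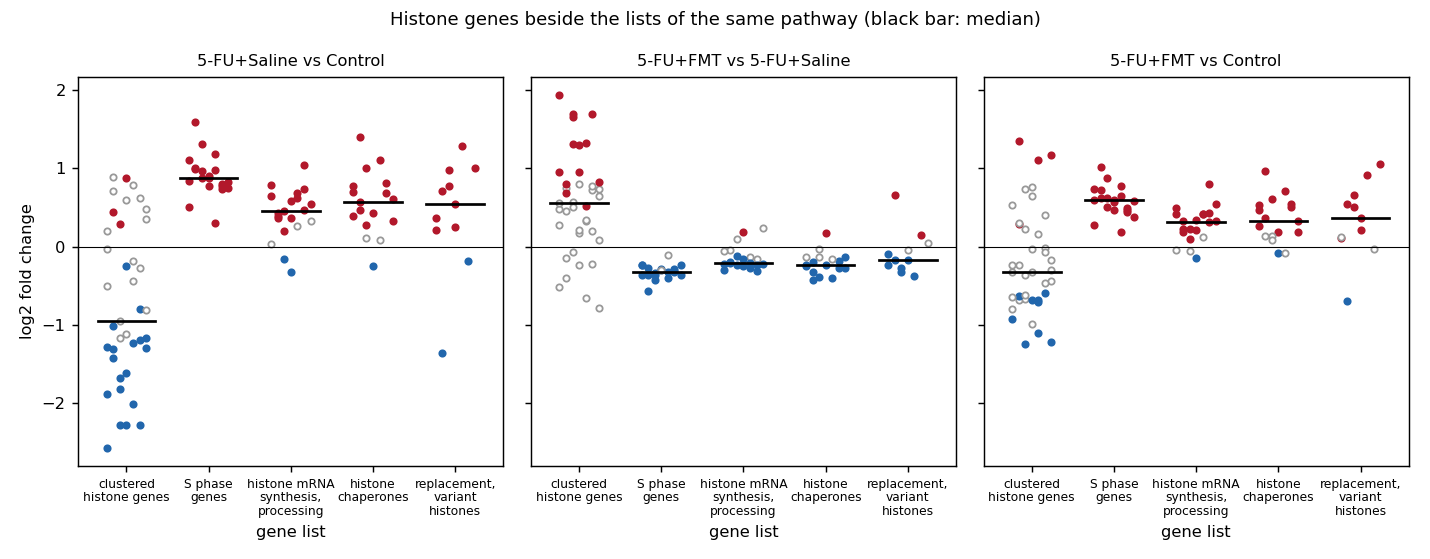
Log2 fold changes (y axis) of the clustered histone genes tested and of 4 lists of the same pathway (x axis) in 3 comparisons, with the median of each list as a black bar and called genes filled (red higher, blue lower). The histone genes lie mostly below 0 in 5-FU+Saline against Control (median -0.95), where the S phase genes all lie above it (median 0.88), and the 2 lists are on opposite sides in 5-FU+FMT against 5-FU+Saline as well (medians 0.56 and -0.32).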

How the data were processed

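The deposited values are raw counts of read pairs per gene, with a table for each of the 9 libraries. Per the submitters' processing notes, reads were handled with Trim Galore 0.6.5, HISAT2 2.2.1, SAMtools and featureCounts 2.0.1, on mm10. Per the file headers, read pairs were counted over exons of the GENCODE M25 annotation with no strand option. Reads were 150 bases long, in pairs, per the labels. Symbols matched 55141 of 56262 IDs, and biotypes (55227 IDs) and transcripts came from GENCODE M21.

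From there, 16595 genes passed filterByExpr, libraries were scaled by TMM, and the 3 groups were fitted together with edgeR 4.0.16 (limma 3.58.1, R 4.3.3; quasi-likelihood F test). A gene counted as changed when its p, adjusted after Benjamini and Hochberg over all genes tested, was under 0.05 (Benjamini-Hochberg). Adjusted p-values and fold changes are from this fit, ± of a fold change is its SE, and ± of a level is the SD over 3 libraries. CPM is the count scaled to a common library size after TMM. The fit was tested on simulated data with changes placed only in better-counted genes and the same spread for every gene. That test does not cover the calls of genes with low counts. Alternatives were RLE and upper-quartile factors, no filter, DESeq2 1.42.0, a replicate block, fits of only the 2 groups compared, and leaving out each library. Plots used Python 3.11.15 with matplotlib 3.10.9.

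The members and lists were chosen with earlier results of these data known. Genes named were the 3 most abundant members per family, per comparison and direction the 4 called members with the smallest p and the 3 with the largest fold at 10 CPM or more, testis-type members, members outside chromosome 13 at 10 CPM or more, and up to 3 list genes per direction with the smallest p. Other members were named after their values were seen. Negative log2 fold changes mean lower in the group named before the word against.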

Additional observations from a re-analysis of the deposited data

How the results depend on the processing

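No alternative turned the direction of a call. Over 2821 values of named genes under an alternative, 2679 stayed on their side of the threshold, 116 lost a call and 26 gained one. In 5-FU+Saline against Control, the genes that rose numbered 1 to 3 when a library was left out (3 in the full fit) and those that fell 14 to 21 (19). In 5-FU+FMT against 5-FU+Saline, those that rose numbered 9 to 13 (13), and 8 among the 29 tested with no exon base overlapped, a smaller set chosen after seeing the data. In 5-FU+FMT against Control, those that rose numbered 1 to 5 (4) and those that fell 6 to 9 (9). With upper-quartile factors the median of all genes moved by -0.08 in 5-FU+Saline against Control, and 22 histone genes fell. The histone share of counts fell to 0.0162% in 5-FU+FMT, 0.0120% in 5-FU+Saline and 0.0189% in Control without Hist1h1c, by construction, an alternative also chosen after seeing the data. It was 0.02635% to 0.02662%, 0.01712% to 0.01747% and 0.03448% to 0.03515% in the same order of groups with a library left out. Libraries with the same replicate number did not deviate together (correlations -0.0173 to 0.0194). With a replicate block, 3 rose and 19 fell in 5-FU+Saline against Control, 11 rose in 5-FU+FMT against 5-FU+Saline, and 4 rose and 8 fell in 5-FU+FMT against Control. The 28 genes that failed the filter were not tested, and many of those tested had about 1 CPM.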
